A study of Sus scrofa with 23 samples.

Results

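AACS (ENSSSCG00000009755) and HMGCS1 (ENSSSCG00000016872) are described here in the backfat of 23 crossbred fattening pigs, as 2 of the 25322 genes counted in each pig. Both genes were chosen on measured values of these same pigs, their lower counts in group II and in the combined cDDGS groups than in group I. Differences from group I and from group II are therefore given below as descriptions with their errors and without a test. Both genes passed the filter on low counts, as did 11039 genes over the 4 groups.

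Acetoacetyl-CoA synthetase, the product of AACS, attaches coenzyme A to the ketone body acetoacetate in the cytosol, so that ketone body carbon can enter the synthesis of sterols and fatty acids. HMGCS1 encodes the cytosolic HMG-CoA synthase, which joins acetoacetyl-CoA and acetyl-CoA into HMG-CoA, an early intermediate of the mevalonate pathway to cholesterol. The mitochondrial HMG-CoA synthase of ketone body formation is another gene. In the adipose tissue of pigs, a main site of fatty acid synthesis, AACS acts beside the enzymes that export citrate from mitochondria and split it into cytosolic acetyl-CoA.

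The pigs were kept singly and received isoenergetic diets, which differed in their fat source and in the presence of cDDGS, the dried grain residue of maize ethanol production. The study used gilts and barrows, so the males below are castrated males. Group I (-cDDGS+rapeseed oil) had 7 pigs, 4 females and 3 males, and was the control. Group II (+cDDGS+rapeseed oil) had 6 pigs, 3 of each sex. Group III (+cDDGS+beef tallow) had 5 pigs, of which 2 were females. Group IV (+cDDGS+coconut oil) also had 5 pigs, of which 3 were females. Group II shared the added fat with group I, whereas groups III and IV differed from it in cDDGS and in the fat. By the paper's feed values, the control diet also held less crude fat and fiber and more starch than the cDDGS diets. Linoleic acid made up less of its fatty acids than in the feed of group II. These components cannot be told apart from the presence of cDDGS in the differences from group I. The labels give no age or litter, each pig gave 1 library, and the pig is the unit of every comparison.

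The reads assigned to genes numbered 2437172 to 7979426 per pig, and 280 to 1355 of them fell on AACS and 84 to 378 on HMGCS1. Counting error alone was therefore 2.72 to 5.98% of the AACS value and 5.14 to 10.9% of the HMGCS1 value. The biological coefficient of variation in edgeR was 26.5% for AACS and 20.2% for HMGCS1, against a median of 22.2% over the 11039 genes. Of the uniquely mapped reads of a pig, 51.1 to 71.3% were assigned to no gene and are called reads outside genes below. Adipocyte genes were abundant in every pig, with PLIN1, the main coat protein of the lipid droplet, at 740.1 CPM or more. The library names begin with one letter in groups I and IV and another in groups II and III, and the meaning of the letter is not given in the sources used here. Group and letter cannot be told apart between groups I and II, I and III, II and IV, or III and IV. Groups I and IV share a letter, as do groups II and III. All levels below are CPM, counts per 1e+06 reads after TMM normalization over the 23 pigs, and are not corrected for gene length.

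AACS was highest in the control diet and lower in nearly all pigs that received cDDGS. In group I the lowest pig had 163 CPM, the median was 219.3 and the highest had 255.6, with a mean of 208.5 ± 36.1 (SD, n = 7). In group II the lowest pig had 103 CPM, the median was 116.2 and the highest had 136.7, with a mean of 117.8 ± 11.1 (SD, n = 6). The 6 pigs of group II thus all lay below the lowest pig of group I and formed the tightest of the 4 groups, with a coefficient of variation of 9.43%. Such complete separation downwards was seen for 25 of 11039 genes (0.226%), and since AACS was chosen on this difference nothing is read from that share.

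With beef tallow, AACS was 119.4 CPM in pig 41, 98.7 in pig 43, 70.2 in pig 45, 102.1 in pig 46 and 264.5 in pig 48. Of these values 4 lay below every control pig and 1 lay above every control pig, so the mean of 131.0 ± 76.7 (SD, n = 5) describes neither. With coconut oil, AACS was 136.4 CPM in pig 49, 191.9 in pig 52, 162.2 in pig 53, 119.3 in pig 54 and 131.0 in pig 55, with a mean of 148.2 ± 29.1 (SD, n = 5). Pig 52 lay inside the control range and the other 4 lay below it, pig 53 only just. Over the 3 cDDGS groups, 14 of 16 pigs had less AACS than the lowest control pig.

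HMGCS1 followed the same order of group means with a smaller distance between groups. In group I the lowest pig had 48.6 CPM, the median was 60.2 and the highest had 76.7, with a mean of 62.9 ± 9.77 (SD, n = 7). In group II the lowest pig had 36.5 CPM, the median was 39.6 and the highest, pig 17, had 56.6, with a mean of 41.9 ± 7.47 (SD, n = 6). Pig 17 was the only pig of group II inside the control range. With beef tallow, HMGCS1 was 32.8 CPM in pig 41, 35.7 in pig 43, 40.5 in pig 45, 43.5 in pig 46 and 62.7 in pig 48. Pig 48 was thus the highest of its group for both enzymes, but for HMGCS1 it lay within the control range and not above it. With coconut oil, HMGCS1 was 33.9 CPM in pig 49, 51.0 in pig 52, 60.0 in pig 53, 35.2 in pig 54 and 49.9 in pig 55. Group IV split into 2 pigs below the control range and 3 within it, and in all 11 of the 16 pigs with cDDGS lay below the lowest control pig.

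**Figure D1:**
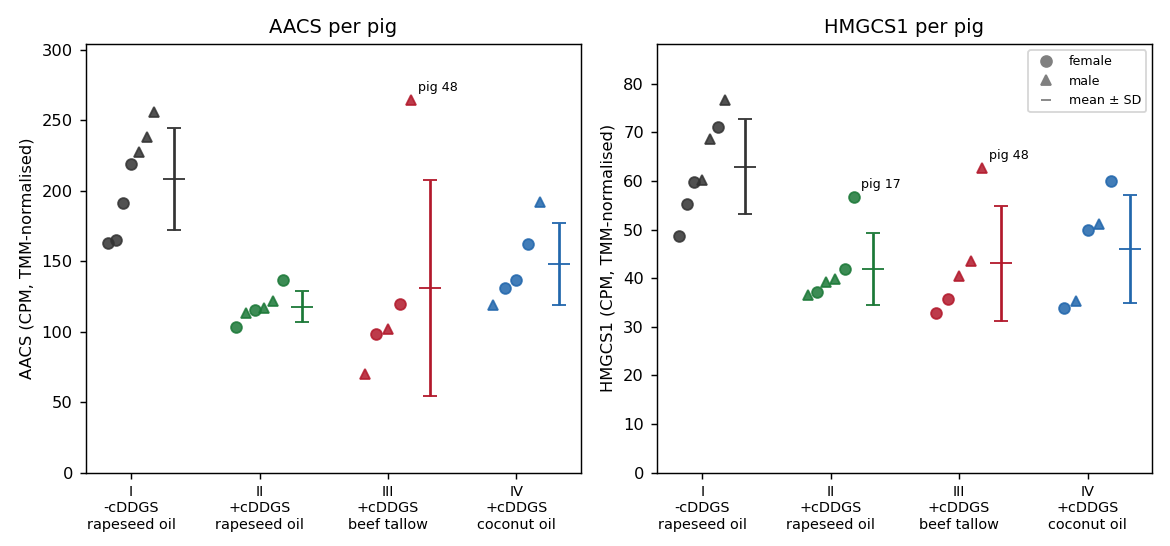
Level of AACS (left) and HMGCS1 (right) in each pig, in CPM after TMM normalization on a linear axis from 0, by diet group. Circles are females and triangles males, and the bar beside each group is its mean ± SD. The 6 pigs of group II lie below all 7 pigs of group I for AACS, while pig 48 of group III stands at 264.5 CPM for AACS and 62.7 CPM for HMGCS1, and pig 17 of group II at 56.6 CPM for HMGCS1.

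On the log2 scale of the edgeR fit, AACS was lower than in group I by 0.82 with rapeseed oil (group II, SE 0.12), 0.67 with beef tallow (group III, SE 0.26) and 0.49 with coconut oil (group IV, SE 0.15). These differences correspond to levels 43.5%, 37.2% and 28.8% below the control diet. For HMGCS1 the differences were 0.58 (SE 0.13), 0.55 (SE 0.16) and 0.44 (SE 0.16), or 33.3%, 31.5% and 26.5% below it. Over the combined cDDGS groups, the level of AACS was 37.0% and that of HMGCS1 30.7% below group I, and the median log2 difference over all genes tested lay between -0.0135 and 0.0056 in these 4 comparisons. The 4 comparisons share the pigs of group I and are not independent of each other. Without pig 48, the difference of group III from group I was -1.10 for AACS and -0.72 for HMGCS1. With the share of reads outside genes as a covariate, that of group IV was -0.26 for AACS and -0.10 for HMGCS1. In bulk tissue, fewer cells that express a gene and less of its RNA per cell cannot be told apart.

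By group means both genes were ordered I, IV, III and II from high to low, with overlap between the pigs of neighbouring cDDGS groups, and by medians AACS was lower in group III (102.1 CPM) than in group II (116.2 CPM). Group III exceeded group II by 0.16 (SE 0.26) for AACS and 0.04 (SE 0.17) for HMGCS1 on the log2 scale, and without pig 48 these differences were -0.27 and -0.14. Group IV exceeded group II by 0.32 (SE 0.13) for AACS, or 0.21 without pig 52, and by 0.13 (SE 0.17) for HMGCS1, which ran from 0.0154 without pig 53 to 0.24 without pig 17. The comparison of coconut oil with beef tallow was not used to choose the genes and was tested. Group IV was 0.18 above group III for AACS (SE 0.30, 95% confidence interval -0.50 to 0.86) and 0.10 for HMGCS1 (SE 0.20, interval -0.365 to 0.57), with an adjusted p of 0.997 for both in edgeR's quasi-likelihood test with Benjamini-Hochberg adjustment. Exact two-sided permutation tests over the 252 regroupings gave p = 0.413 and p = 0.675, where the smallest possible p is 0.00794. No gene among 10230 passed the limits in this comparison by edgeR (0%), while 421 genes had an unadjusted p under 0.05. Leaving out 1 pig moved the AACS value between 0.02 (without pig 45) and 0.60 (without pig 48) and the HMGCS1 value between -0.0134 (without pig 53) and 0.27 (without pig 48), and with reads outside genes as a covariate the values were 0.65 and 0.52, none past the limit. The interval of AACS holds a difference as large as that between groups I and II, so the test does not show that both fats acted alike.

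Both enzymes were lower with cDDGS in females (gilts) and in males (barrows). In the control group AACS averaged 184.6 CPM in the 4 females and 240.4 CPM in the 3 males. The sexes did not overlap there, but the share of all genes that separate so was not counted. Nothing is therefore read from that separation. In group II the averages were 118.5 CPM in females and 117.2 CPM in males, with overlap. On the log2(CPM + 0.5) scale, the difference of the combined cDDGS groups from group I was -0.56 in females and -0.91 in males for AACS, and -0.45 and -0.66 for HMGCS1. The test of this contrast between the sexes gave -0.25 for AACS (SE 0.33, adjusted p = 1.00) and -0.22 for HMGCS1 (SE 0.25, adjusted p = 1.00) in edgeR's quasi-likelihood test. Leaving out 1 pig moved these values between -0.46 (without pig 48) and -0.15 (without pig 45) for AACS, and between -0.33 (without pig 5) and -0.13 (without pig 8) for HMGCS1. No gene of 11466 passed the limits there (0%), and 416 had an unadjusted p under 0.05. Across the 4 diets, males exceeded females by 0.23 for AACS (SE 0.15, interval -0.09 to 0.54, adjusted p = 0.444) and by 0.08 for HMGCS1 (SE 0.12, interval -0.17 to 0.34, adjusted p = 0.756) in the edgeR fit with diet as a covariate. Without pig 48 the values were 0.08 for AACS and 0.03 for HMGCS1, and without pig 17 the HMGCS1 value was 0.14. Permutation of sex within diet groups, over all 70000 regroupings, gave exact p = 0.320 and p = 0.482. In that fit 98 of 10276 genes (0.954%) passed the limits, and neither enzyme was among them.

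The level of AACS relative to HMGCS1 varied least in the control group, though its place ahead of group II rested on pig 17. Without a correction for gene length the ratio of their CPM has no meaning as a ratio of molecules, but it can be compared between pigs. It was 3.32 ± 0.39 (SD, n = 7) in group I and ranged there from 2.95 to 3.95. Of the cDDGS groups, it was 2.87 ± 0.46 with rapeseed oil (SD, n = 6), 2.94 ± 1.00 with beef tallow (SD, n = 5) and 3.30 ± 0.62 with coconut oil (SD, n = 5). The extremes were both pigs fed beef tallow, pig 45 with 1.73 and pig 48 with 4.22. Pig 17 had the lowest ratio of group II with 2.04, since its AACS (116 CPM) lay near the group median while its HMGCS1 was the highest of the group. The rest of group II ran from 2.77 to 3.33, a narrower span than that of group I.

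The choice of the genes fixed how they differ between diets, but not how they vary among pigs of one diet. Centred on the means of their diet groups, AACS and HMGCS1 rose and fell together over the 23 pigs, with r = 0.611 (p = 0.0104, adjusted p = 0.0311) and Spearman's rho = 0.580 (p = 0.00984, adjusted p = 0.0295) by permutation within diet groups. Adjustment was over 3 relations. Within group I, r was 0.779 (exact permutation p = 0.0443, adjusted p = 0.0664) and rho 0.679 (exact p = 0.110). Within group II, r was 0.121 (exact permutation p = 0.708) and rho 0.086 (exact p = 0.919). Without the pigs farthest from the median of AACS, r was 0.545 over the pigs other than 48 and 45, but 0.338 in group I and -0.39 in group II, so the relation within group I rests on those pigs. Without pig 48 alone it was 0.395 over the other 22 pigs (permutation p = 0.0962), and the call was lost.

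**Figure D2:**
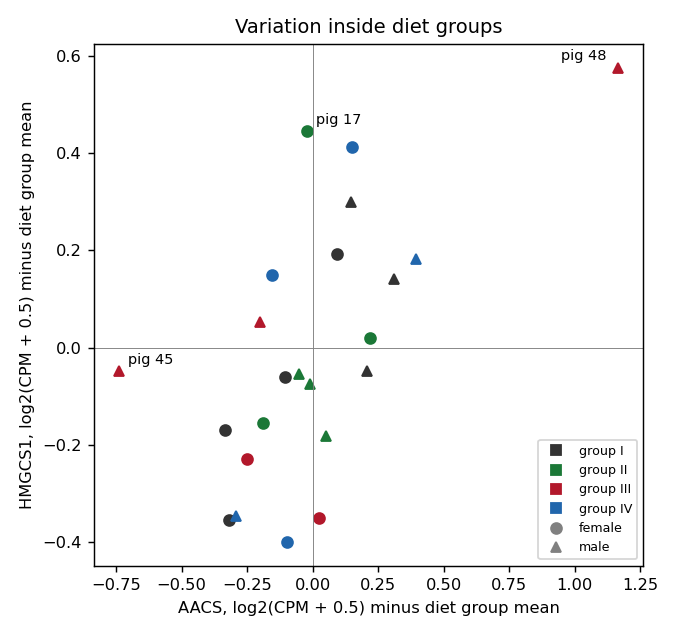
Deviation of each pig from the mean of its diet group for AACS (horizontal) and HMGCS1 (vertical), both on the log2(CPM + 0.5) scale, with colours for diet groups and symbols for sex. The points rise together (r = 0.611, n = 23), with pig 48 far to the upper right. Without pig 48, r was 0.395.

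The steps that follow HMGCS1 in cholesterol synthesis were examined next, with the other listed pathway genes. The lists were chosen with earlier results of these data known, so their differences from group I are descriptions. Of 71 listed genes, 60 had an identifier with a symbol among the counted genes and 52 passed the filter in the comparison of groups I and II. Of the 14 cholesterol synthesis enzymes tested, 12 were below zero in the comparison of group II with group I, and 7 of them had an unadjusted p under 0.05. Among these 7 were DHCR7 (-0.77), which makes cholesterol in the last step of one branch, SC5D (-0.68), the sterol desaturase before it, MVK (-0.60), mevalonate kinase, ACAT2 (-0.55), the cytosolic thiolase that makes acetoacetyl-CoA for HMGCS1, LSS (-0.51), which closes the sterol rings, and FDPS (-0.32), farnesyl diphosphate synthase. None was higher at that limit, and FDFT1 (0.31, SE 0.19), the squalene synthase, and CYP51A1 (0.06, SE 0.15) were the pair above zero. DHCR7 and MVK were low, at means of 2.86 and 3.13 CPM in group I, so their differences rest on few reads. The median of the 14 enzymes was -0.44, against 0.00 for all genes tested.

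Several genes of cytosolic acetyl-CoA and NADPH supply and of fatty acid synthesis lay further from group I than either enzyme. ACLY, the ATP citrate lyase that releases acetyl-CoA from citrate, ranged from 324.7 to 1476 CPM with a median of 554.7 in group I and from 174.1 to 348.3 with a median of 230.1 in group II, a log2 difference of -1.57 (SE 0.31). The groups overlapped, since pig 22 of group II exceeded pig 1 of group I. The difference was -1.24 for malic enzyme ME1, -0.88 for the mitochondrial citrate carrier SLC25A1, -1.09 for the stearoyl-CoA desaturase SCD, -0.99 for the fatty acid synthase FASN and -0.89 for the acetyl-CoA carboxylase ACACA. FASN reads are split over a pair of identifiers, of which the one that carries the symbol is given. All 8 supply genes tested were below zero, 6 of them at an unadjusted p under 0.05, with a median of -0.63. Of the 6 tested fatty acid synthesis genes, 4 had such a p, and the median was -0.70.

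The ketone body genes, the regulators and the genes of sterol uptake had medians nearer zero, at -0.15, -0.14 and -0.05. Of 6 ketone body and HMG-CoA genes, 1 was lower at that limit in group II, the monocarboxylate transporter SLC16A7 (-0.36), and OXCT1, which activates acetoacetate in mitochondria, was at 0.13 (SE 0.22). OXCT1 was above group I in group III (0.41, unadjusted p = 0.0225, adjusted p = 0.563 in edgeR) and in group IV (0.38, unadjusted p = 0.0250, adjusted p = 0.283 in edgeR). Of 8 regulators, MLXIPL (-0.56), a glucose-responsive activator of lipogenic genes, and NR1H3 (-0.31), the oxysterol receptor LXR alpha, were lower at that limit, and INSIG1, which retains the sterol sensor in the endoplasmic reticulum, was at -0.26 (SE 0.25). Of 10 uptake, transport and storage genes, none was lower and NPC2 (0.44), a lysosomal cholesterol carrier, was higher. SREBF1 has no value here, and SREBF2 did not pass the filter.

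Over the lists, 20 of 52 genes were lower in group II at an unadjusted p under 0.05 and 1 was higher, against 6.41% and 6.55% of all 10323 genes. Since the lists were chosen with earlier results known, an excess over all genes can be partly built in. The counts in this paragraph are therefore no test of the lists. By edgeR's adjusted p none of the 52 passed (the smallest adjusted p was 0.143, for ACLY), as did only 3 genes of all (0.0291%). By DESeq2 84 genes of all passed (0.814%), and among them were 6 listed genes that were lower, ACLY, ME1, SLC25A1, ACACA, FASN and SCD, and 1 that was higher, NPC2. In group III 8 of 52 listed genes were lower and 1 higher at an unadjusted p under 0.05, against 3.90% and 4.07% of all genes. None passed by edgeR, which called 0% of all genes (830 had an unadjusted p under 0.05), or by DESeq2, which called 0.125% of them. In group IV 11 of 51 were lower and 2 higher, against 5.98% and 8.22%, with none by edgeR (0% of all genes, 1475 at an unadjusted p under 0.05) and 1 by DESeq2, SLC25A1, where 1.42% of all genes passed. In the combined groups 20 of 52 were lower and 1 higher, against 7.08% and 8.69%, with none by edgeR (0% of all genes, 1695 at an unadjusted p under 0.05) and 4 by DESeq2, where 1.51% of all genes passed. Among these 4 were SLC25A1, ACACA and FASN. With the share of reads outside genes as a covariate, the lower counts at an unadjusted p under 0.05 were 6 in group II, 18 in group III, 1 in group IV and 9 in the combined groups, and the count of group III ran from 2 without pig 43 to 25 without pig 48.

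**Figure D3:**
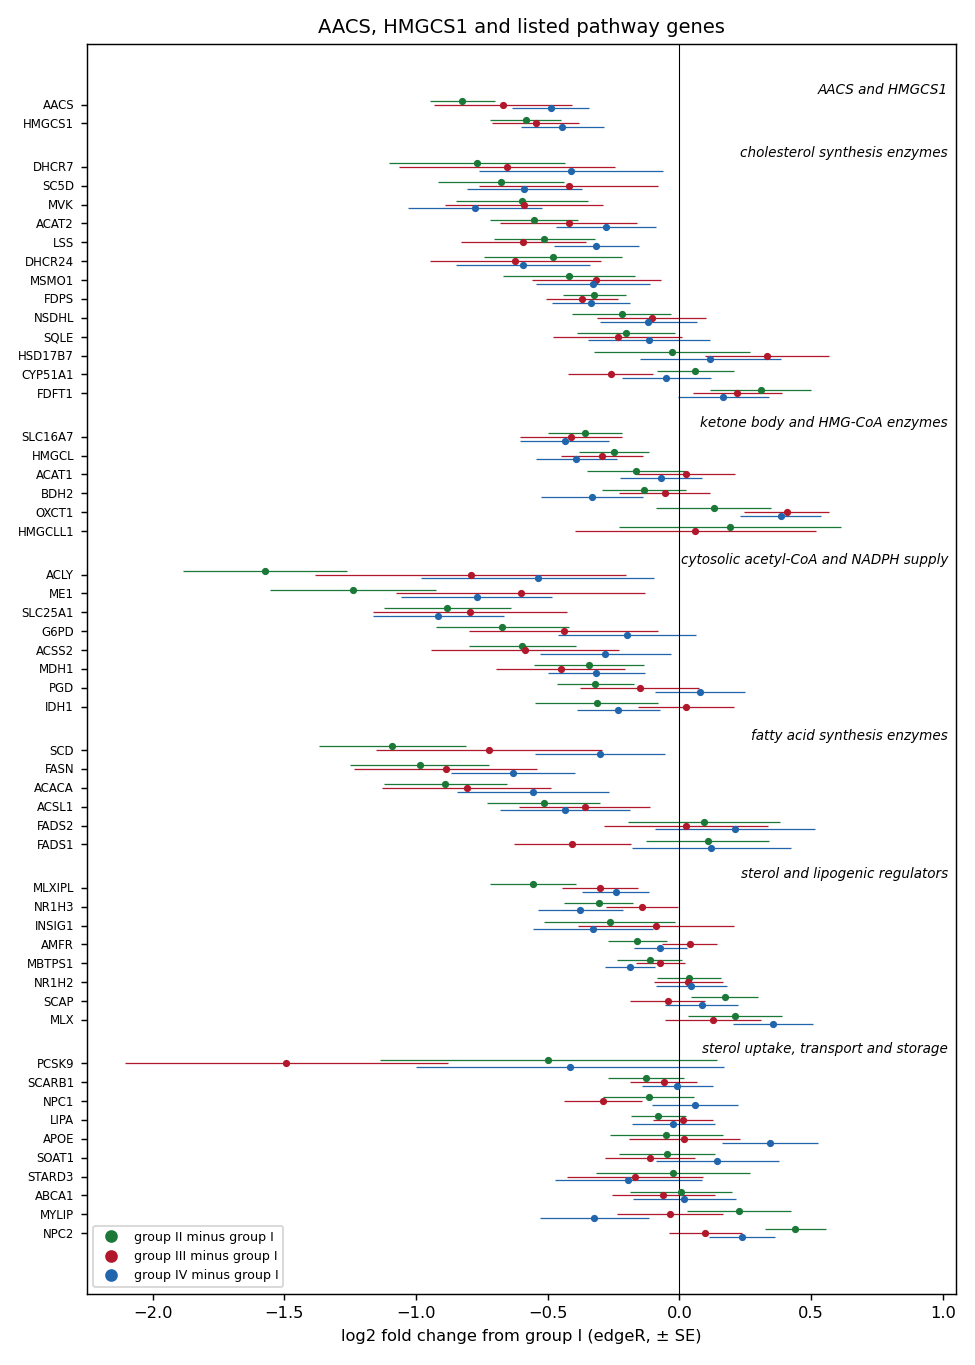
Log2 fold change from group I with its SE (edgeR) for AACS, HMGCS1 and the listed genes tested, apart from 1 that is not shown, with 1 colour for each cDDGS group. Points left of 0 were lower with cDDGS. The lists were chosen with earlier results of these data known. For group II the list medians were -0.44 for cholesterol synthesis, -0.63 for acetyl-CoA and NADPH supply and -0.70 for fatty acid synthesis, against -0.14 for the regulators and -0.05 for uptake, transport and storage.

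In males, 11 of 50 listed genes were higher than in females at an unadjusted p under 0.05 and 2 were lower, against 8.56% and 9.15% of all genes. None of the 50 passed edgeR's adjusted limits and 2 passed in DESeq2. All 8 acetyl-CoA and NADPH supply genes were above zero, with a median of 0.43, ACLY at 0.77 (SE 0.37) and ACSS2, which makes acetyl-CoA from acetate, at 0.50 (SE 0.22). AACS, at 0.23 (SE 0.15), lay beside the lowest of these 8 values, 0.2305, and HMGCS1, at 0.08 (SE 0.12), lay below all 8. Whether either enzyme differed from the supply genes was not tested. Single pigs weigh on the list: the males 48 and 52 were each the highest of their groups in 7 of 8 supply genes. The female pig 5 was likewise the highest of group I in 7 of 8. How far the list depends on these pigs was not tested.

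Within diet groups, the gene of all 11038 others that followed AACS most closely was ACLY. Over the 23 pigs the 5 named genes most like AACS were ACLY (r = 0.897), SNTB1 (0.852), RPN2 (0.837), SCD (0.836) and ACACA (0.829), among 7798 genes with a symbol. After centring on diet groups they were ACLY (r = 0.855), SC5D (0.804), RPN2 (0.796), ACSS2 (0.788) and SNTB1 (0.781). The r before centring includes the difference between diets on which AACS was chosen, so genes with a like difference rank high in it by construction. SNTB1 encodes a syntrophin of the membrane cytoskeleton and RPN2 a subunit of the enzyme that attaches sugars to new proteins. Without pig 48, the centred r was 0.709 for ACLY, 0.634 for SC5D and 0.523 for RPN2.

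The genes most like HMGCS1 were others. Over the 23 pigs they included COX15 (r = 0.897), SNTB1 (0.859), UQCRFS1 (0.859) and SLC25A1 (0.857), and after centring UQCRFS1 (0.850), JPT2 (0.811), COX15 (0.809) and SBDS (0.781). Here too the r before centring includes the difference between diets on which HMGCS1 was chosen. UQCRFS1 is the iron-sulphur subunit of respiratory complex III and COX15 serves heme A synthesis for complex IV, while SBDS serves ribosome maturation. Without pig 48 the centred r was 0.805 for UQCRFS1 and 0.772 for COX15. With the share of reads outside genes removed it was 0.683 and 0.728. SNTB1 was the one gene on the uncentred lists of both enzymes, which both include that difference between diets.

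Among the 52 listed genes, 17 had a centred r above 0.5 with AACS, against 2.62% of all genes, and 22 with HMGCS1, against 4.29%. For AACS they were 6 of the 14 cholesterol synthesis enzymes, 6 of the 8 supply genes, 4 of the 6 fatty acid synthesis genes and 1 of the 6 ketone body genes. For HMGCS1 they were 8 of 14, 7 of 8, 5 of 6 and none of 6, with 2 of the 10 uptake genes. No regulator passed that level with either enzyme. ACAT2 was at 0.692 with AACS and 0.754 with HMGCS1, and SQLE, the squalene epoxidase, at 0.664 and 0.742. FDFT1 was at -0.03 and 0.273. Without pig 48 the counts were 6 of 52 for AACS (1.09% of all genes) and 17 of 52 for HMGCS1 (3.96%). The count for AACS therefore depended on that pig. With the share of reads outside genes removed they were 16 (2.19%) and 14 (1.90%).

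**Figure D4:**
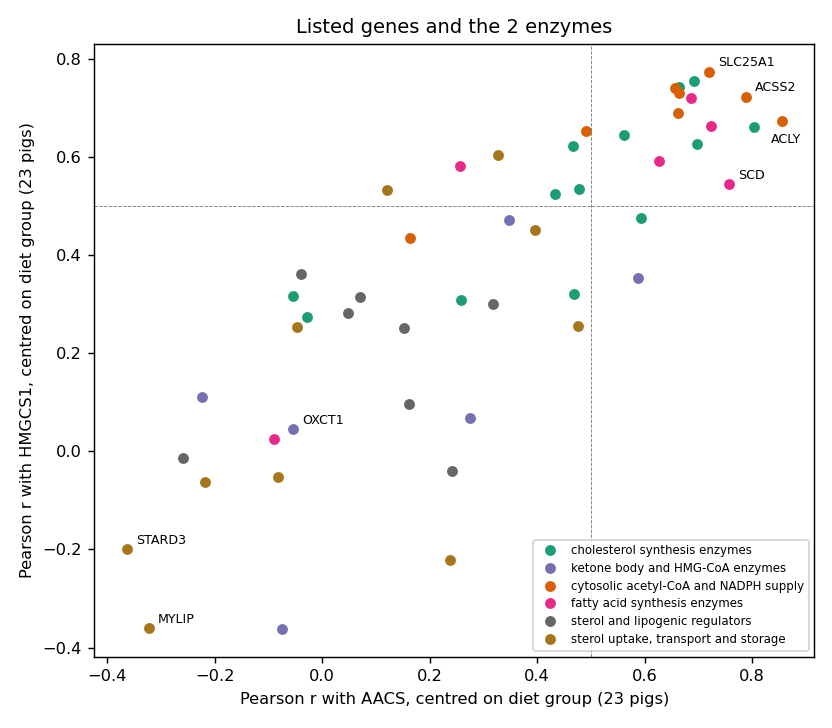
Pearson r of the listed genes, apart from 1 that is not shown, with AACS (horizontal) and with HMGCS1 (vertical) over 23 pigs after centring on diet groups, with 1 colour for each list and dashed lines at 0.5. Of the 14 supply and fatty acid synthesis genes, 10 lie beyond 0.5 on both axes, with ACLY at 0.855 and 0.673, while IDH1, MDH1, FADS1 and FADS2 do not.

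Pig 48, the beef tallow pig with high AACS, was also high in most genes of these pathways. It was the highest of its group of 5 in 12 of 14 cholesterol synthesis enzymes, 7 of 8 supply genes and 4 of 6 fatty acid synthesis genes, and in 31 of all 52 listed genes, against 24.8% of all genes. ACLY was 1401 CPM in pig 48 and 103.5 to 213 in the other 4 pigs of group III, ACSS2 was 303.3 against 69.0 to 99.7, and SC5D was 123.6 against 25.2 to 45.9. Pig 17, with the high HMGCS1 of group II, was the highest of its group of 6 in 10 of 14 cholesterol synthesis enzymes but in 3 of 8 supply genes and 1 of 6 fatty acid synthesis genes, against 15.7% of all genes. These 2 pigs were singled out after their values were seen. Pig 52, which had the highest AACS of group IV, was the highest of its group in 7 of 8 supply and 5 of 6 fatty acid synthesis genes and in 4 of 14 cholesterol synthesis enzymes, against 20.8% of all genes. The pigs with the highest AACS of groups I and II were less often the highest in supply and fatty acid synthesis genes. Pig 2 of group I was the highest in 1 of 8 supply and 2 of 6 fatty acid synthesis genes. It was the highest in 4 of 14 cholesterol synthesis enzymes and in 11 of all 52 listed genes, against 11.8% of all genes. Its SLC25A1, at 142.8 CPM, was the highest of group I, and its ACLY was 1030 CPM, above the group median of 554.7. Pig 21 of group II was the highest in no supply or fatty acid synthesis gene. It was the highest in 1 of 14 cholesterol synthesis enzymes and 9 of 52 listed genes, against 23.6% of all genes.

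The share of reads outside genes moved with HMGCS1. After centring on diet groups, r with that share was -0.705 for HMGCS1 and -0.35 for AACS over the 23 pigs, while r with the number of reads on genes was 0.30 and -0.09. Groups I and III had shares of 56.8 ± 2.53% (SD, n = 7) and 56.8 ± 4.0% (SD, n = 5). Groups II and IV had 62.5 ± 5.81% (SD, n = 6) and 63.0 ± 5.05% (SD, n = 5). It was lowest in pig 48 (51.1%), and in group II it was lowest in pig 17 (54.5%). With the share as a covariate, the log2 difference of AACS from group I was -0.78 with rapeseed oil, -0.74 with beef tallow and -0.26 with coconut oil. For HMGCS1 it was -0.40, -0.57 and -0.10, so the value in group IV moved most. Between groups I and III, whose mean shares were nearly equal, the difference of both enzymes was as large with the covariate as without it. With the covariate, 4.89%, 4.80% and 2.08% of all genes were lower at an unadjusted p under 0.05 in groups II, III and IV, beside the 6, 18 and 1 listed genes given above. The centred relation of AACS and HMGCS1 was r = 0.548 with the share removed (permutation p = 0.00580).

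**Figure D5:**
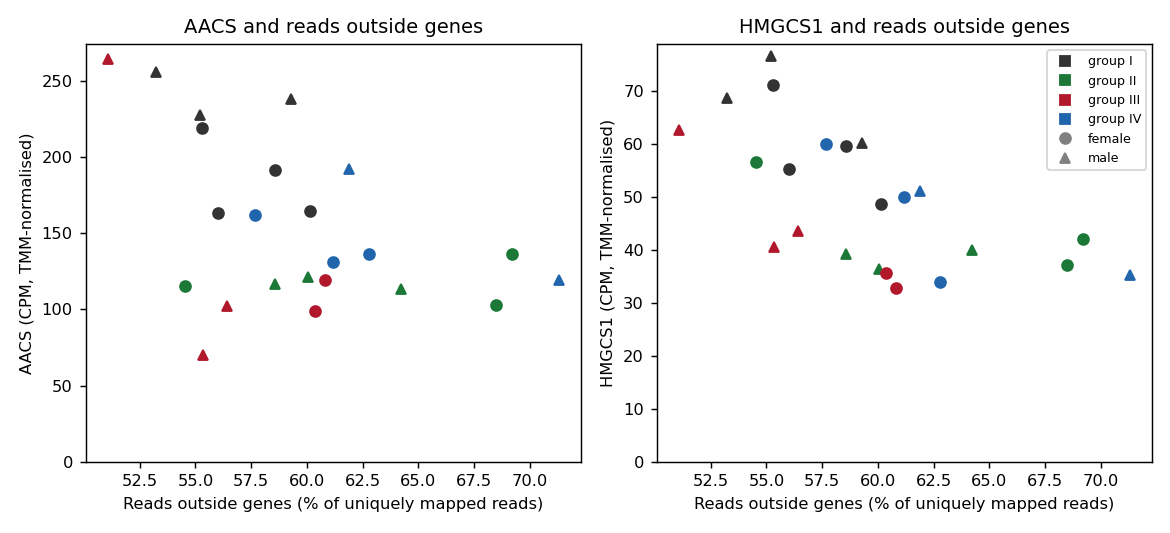
Level of AACS (left) and HMGCS1 (right) in CPM against the percentage of uniquely mapped reads that lay outside genes, 1 point per pig, with colours for diet groups and symbols for sex. HMGCS1 declined with that percentage inside diet groups (centred r = -0.705), AACS less so (-0.35).

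Markers of the cell types that backfat could hold were read beside these results. The summed CPM of the 7 adipocyte markers present, of 12 listed, was 3009 to 4395 in group I, 2461 to 3987 in group II, 2981 to 3452 in group III and 2828 to 3383 in group IV, and its centred r was 0.39 with AACS and 0.304 with HMGCS1. The sum of 5 macrophage markers, of 10 listed, was 32.3 to 132.9 CPM in group I, 140.3 to 295.9 in group II, 59.0 to 183 in group III and 67.4 to 166.2 in group IV. It was thus higher in every pig of group II than in every pig of group I. The share of all genes that separate upwards in this way was not counted, so nothing is read from that separation. The centred r of the macrophage sum was -0.318 with AACS and -0.156 with HMGCS1. The macrophage marker CSF1R was at 0 in at least 1 pig. Skeletal muscle markers, 2 of 8 listed, ranged from 0.88 to 1948 CPM between pigs, with a centred r of 0.07 and 0.263. The sum of 4 keratinocyte markers, of 6 listed, was 2.2 to 8.6 CPM in group I and 2.0 to 18.7 in group II. In groups III and IV it was 3.7 to 7.3 and 3.9 to 13.2. Its centred r was 0.038 with AACS and 0.44 with HMGCS1. Of these 4 genes, KRT1 and KRT15 had a median of 0. KRT10 was at 1.158 CPM or more in every pig, and DSP reached 13.17 CPM. The part of these cell types in the levels of AACS and HMGCS1 was not tested.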

How the data were processed

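Total RNA of backfat, which could not be had undegraded, was made into stranded libraries after removal of ribosomal RNA. Single-end reads were trimmed (FLEXBAR), aligned (TopHat) and assigned to Ensembl genes (HTSeq) by the authors. Raw counts were deposited without normalization, in 25322 gene rows and 5 summary rows per pig. The libraries were pooled and sequenced in replicate on 1 flow cell, and neither the pools nor the merging of runs is given in the sources used here. The submitters' processing notes also name bcl2fastq, FastQC and RSEM. Reads that match several places or overlap several genes are not counted, which lowers the counts of genes with near-identical copies.

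The summary rows, 62.6 to 76.7% of the rows' total in a pig, were left out of library sizes and tests. Over the 56 pairs of pigs of one group, chi-square divided by its degrees of freedom was 7.02 or more, so no pair looked like 1 library. Groups and sex came from the labels. Counts were analysed in R 4.3.3 with edgeR 4.0.16 (TMM, filterByExpr, glmQLFit and glmQLFTest, Benjamini-Hochberg over all genes tested) on the pigs of the groups compared, and with DESeq2 1.42.0 as an alternative. The limits were an adjusted p under 0.05 and a fold above 1.3, and the SE was the log2 fold change divided by the root of F. Adjusted p-values that DESeq2 gave as NA were left out. Symbols came from a reference table that named 11804 of the 25322 identifiers. Positions, sequences and the values of some genes are not reported here. Correlations used log2(CPM + 0.5). The fits were tested on simulated counts.

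The members and the gene lists were chosen with earlier results of these data known. Named genes were AACS, HMGCS1, the listed pathway genes and, for each enzyme, the 5 genes with a symbol and the highest r, before and after centring on diet groups. Alternatives were other size factors, no filter, DESeq2, all groups in 1 fit, sex or reads outside genes as covariates, the most abundant gene left out and each pig left out in turn. Removal of the share of reads outside genes from correlations, and the list correlations without pig 48, were added after the data had been seen. Figures were drawn with matplotlib 3.10.9.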

Additional observations from a re-analysis of the deposited data

Results flagged for a closer look

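AACS in pig 48 of group III, at 264.5 CPM, stood apart from the other 4 pigs of its group, of which the nearest had 119.4 CPM. On the CPM scale this gap was 0.747 of the whole range of the group, above Dixon's 95% critical value of 0.71 for 5 samples. On the log2 scale of the correlations, AACS was 8.05 in pig 48, 6.91 in pig 41, the nearest, and 6.14 in pig 45, the lowest. There the gap was a smaller part of the range and lay below that critical value, so pig 48 was marked on CPM only. HMGCS1 in pig 17 of group II, at 56.6 CPM, stood apart from the other 5 pigs of its group, of which the nearest had 42.0 CPM. On the CPM scale the gap was 0.726 of the range, above the critical value of 0.625 for 6 samples. On the log2 scale HMGCS1 was 5.84 in pig 17, 5.41 in pig 21, the nearest, and 5.21 in pig 24, the lowest. There the gap was also above that critical value. AACS, HMGCS1 and their ratio were examined in 4 groups each, 12 in all, and chance alone marks about 1 in 20 such groups.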

How the results depend on the processing

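Of 282 alternative values of the diet differences of AACS and HMGCS1, 276 had the same sign as the reported value. With reads outside genes as a covariate, the HMGCS1 difference of group IV from group I was -0.10, and group III was below group II for AACS (-0.084) and HMGCS1 (-0.21). Leaving out 1 pig moved the difference of group III from group II between -0.27 (without pig 48) and 0.31 (without pig 45) for AACS, and between -0.14 (without pig 48) and 0.14 (without pig 17) for HMGCS1, with -0.0025 without pig 24. It moved the HMGCS1 difference of group IV from group III between -0.0134 (without pig 53) and 0.27 (without pig 48).

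The listed genes lower at an unadjusted p under 0.05 numbered 6 in group II, 18 in group III, 1 in group IV and 9 in the combined groups with that covariate, and 7 in group IV with all groups in 1 fit. Leaving out 1 pig gave 14 to 22 in group II, 2 (without pig 43) to 25 (without pig 48) in group III, 8 to 16 in group IV and 13 (without pig 2) to 23 in the combined groups. At the adjusted limits, edgeR called 0 to 1 listed genes in group II (1 without pig 1) and 0 to 3 in the combined groups (3 without pig 48), and DESeq2 called 7, 1 and 4 in group II, group IV and the combined groups. The centred r of AACS with HMGCS1 lay between 0.395 (without pig 48) and 0.679 (without pig 45). Listed genes with r above 0.5 numbered 6 for AACS without pig 48, and 14 for HMGCS1 with the share of reads outside genes removed. The causes of these changes were not tested. No paired analysis was possible because the labels give no replicate numbers shared between groups. Depth limits HMGCS1, with 84 reads in its lowest pig, more than AACS.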
